A study of Homo sapiens with 6 samples.

Results

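The genes that give the sinoatrial node its identity and its rhythm were examined as a group of 7: the transcription factors SHOX2, TBX2, TBX3 and TBX18 and the ion channels HCN2, HCN3 and HCN4. They were taken by symbol from a table of 35793 genes, where all 7 were found, and 6 of them were abundant enough to be tested with 15536 genes in all (a mean of at least 10 normalized counts over the libraries). The established human stem cell line WTC11, an induced pluripotent line, was differentiated into cardiomyocytes, and RNA was sequenced on day 15. The wild-type cells were unedited WTC11, and the knockout cells came from a WTC11 derivative made with CRISPR/Cas9 that the labels call an STK25 homozygous knockout. Each genotype had 3 biological replicates and no treatment. The labels name 1 knockout line, so the edit and any other difference between the lines cannot be told apart, and p-values here measure the spread between replicates of 2 lines. Whether the replicates were separate differentiations is not given in the sources used here.

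The heartbeat starts in the sinoatrial node, whose cells depolarize by themselves between beats. Part of that slow depolarization is the funny current, which is carried by HCN channels: cation channels that open when the membrane becomes negative and that cAMP opens further. HCN4 is the main HCN channel of the human node, and HCN2 and HCN3 are better known from working heart muscle and nerve. TBX18 is a T-box factor of the progenitors that form the head of the node, and of the epicardium. SHOX2 is a homeodomain factor of the same region that holds down NKX2-5. TBX3 maintains the node and conduction tissue, and TBX2 patterns the atrioventricular canal. Both are repressors that keep genes of the working chambers, such as those for the atrial natriuretic peptide and the fast connexins, switched off.

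RefSeq promoter sequence on GRCh38.p14 was matched by symbol for 5 of the 7 genes. Below are the 250 bases before the start of TBX18, the tested gene with the largest fold change among the 7, and of HCN2, the one with the smallest. Both run 5′ to 3′ on the gene's own strand, and capitals mark CpG dinucleotides. TBX18 is read from the minus strand of chr6:84764599-84764848 and HCN2 from the plus strand of chr19:589631-589880.
TBX18: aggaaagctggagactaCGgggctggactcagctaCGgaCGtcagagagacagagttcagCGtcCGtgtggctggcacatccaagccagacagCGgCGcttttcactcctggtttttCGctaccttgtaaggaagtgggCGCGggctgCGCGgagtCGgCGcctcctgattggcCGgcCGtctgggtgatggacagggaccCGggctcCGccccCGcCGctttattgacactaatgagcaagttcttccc
HCN2: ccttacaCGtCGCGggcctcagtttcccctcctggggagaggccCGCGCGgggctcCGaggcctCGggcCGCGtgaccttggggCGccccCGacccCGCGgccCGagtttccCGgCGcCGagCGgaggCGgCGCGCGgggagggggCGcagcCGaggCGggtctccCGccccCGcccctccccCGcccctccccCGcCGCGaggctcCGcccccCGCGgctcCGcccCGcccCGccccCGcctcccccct
The TBX18 window held 20 CpGs and was 61.6% G and C, while that of HCN2 held 39 and was 84.0%. Over 35116 RefSeq promoters the medians were 11 CpGs and 58.0%. Binding motifs were searched on both strands: AGGTGTGA and its core GGTGTG for T-box factors (the first holds the second), TNAAGTG for NKX2-5 and AGATAA for GATA factors. Of all promoters 0.786%, 14.2%, 8.73% and 9.17% held them in turn. Among the 5 windows there was 1 match, a GGTGTG read on the opposite strand 27 bases before the RefSeq start of HCN3. The gene positions given below come from another annotation, GENCODE 29, whose starts differ from these. By those positions the HCN3 window lay inside CLK2, and the windows of HCN4 and SHOX2 lay inside their own genes. The windows of TBX18, HCN2, HCN4 and SHOX2 held no match, which says only that these letters are not in these 250 bases.

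The libraries held from 22443904 to 53224112 reads assigned to genes. STK25, the targeted gene, was at 8119 ± 1168 normalized counts in the wild type and 3719.9 ± 251 in the knockout (SD, n = 3 each). Its log2 fold change was -1.12 (SE 0.19, limma adjusted p = 0.00903, or 0.0611 without wild-type replicate 1). Markers of cardiomyocytes, such as TNNT2 and TTN, were high in all 6 libraries: the 10 on the list summed to between 868501 and 921871 normalized counts in the wild type and between 1045590 and 1083460 in the knockout, and only NKX2-5 among them passed the test. By principal components, genotype lay along the first axis (55.6% of the variance), and along the second (24.1%) 2 libraries stood apart, replicate 2 of the wild type and replicate 1 of the knockout. Results that rest on them are given with and without them. In bulk RNA, fewer cells that express a gene and less of its RNA in each cell cannot be told apart.

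None of the 6 tested pacemaker genes passed the genome-wide test. With limma on log2(normalized count + 1) and Benjamini-Hochberg adjustment, 0 of 6 had an adjusted p under 0.05, against 12.8% of all genes tested (5.97% as higher in the knockout and 6.79% as lower). At an unadjusted p under 0.05 there were 3 (TBX3, TBX18 and HCN4), against 27.5% of all genes. That count of 3 became 0 without knockout replicate 2, 1 without wild-type replicate 1 or knockout replicate 3, and 2 without wild-type replicate 3. On recovered reads, the quasi-likelihood test of edgeR also called 0 (3 at an unadjusted p under 0.05), and DESeq2 called 3: TBX3 and TBX18 as higher and HCN4 as lower. In the same 3 genes the knockout libraries did not overlap the wild-type libraries, as was so for 33.4% of all tested genes (16.2% higher, 17.2% lower). The median log2 fold change over the 6 was 0.19, beside 0.0052 over all genes tested. The calls depended on wild-type replicate 2 and knockout replicate 1. Without knockout replicate 1, TBX3 passed (adjusted p = 0.0286), and without both of these libraries, a choice made after the data were seen, TBX3 (0.00794) and HCN4 (0.00203) passed in fits of 2 against 2.

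**Figure D1:**
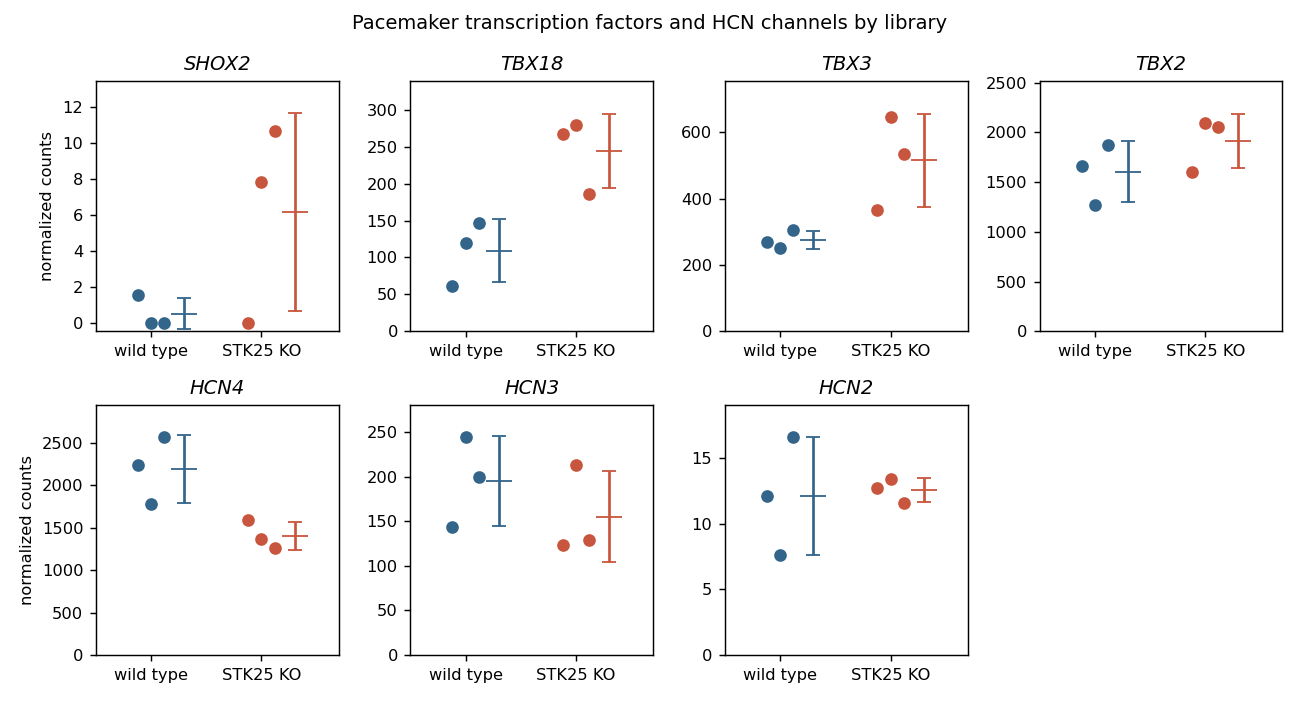
Normalized counts of the 7 pacemaker genes in each library (points, replicates 1 to 3 from left to right) with the mean and SD of 3 libraries. Each panel has its own linear axis, and the wild-type SD bar of SHOX2 reaches below 0. TBX18 and TBX3 were higher in every knockout library than in any wild-type library, HCN4 was lower, and SHOX2 never exceeded 10.7.

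SHOX2 (ENSG00000168779.19, chromosome 3 from 158095954 to 158106503, minus strand, GENCODE 29 on GRCh38, as for all gene positions below) was close to the limit of detection. It was represented by 1, 0 and 0 reads in wild-type replicates 1, 2 and 3 and by 0, 7 and 12 reads in knockout replicates 1, 2 and 3. In normalized counts these were 1.51, 0 and 0 against 0, 7.80 and 10.7. Knockout replicate 1 thus looked like the wild type and the other knockout libraries held a few reads each. A count of 0 allows up to 3 reads, or 2.29, 1.91 and 3.81 normalized counts in the 3 libraries without a read, for counting error only. SHOX2 stayed below the filter and was not tested. Fitted without the filter among all 24171 genes with a read, it was also not among the calls. Its paralog SHOX, at 8.73 normalized counts on average in the wild type and 11.4 in the knockout, spread from 1.11 to 21.6 in the knockout. Its mean was higher there while its log2 fold change, a mean over logs, was -0.15 (limma adjusted p = 0.946).

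TBX18 (ENSG00000112837.16, chromosome 6 from 84687351 to 84764519, minus strand) had 61.9, 119.6 and 147 normalized counts in the wild-type libraries and 267, 279.8 and 187 in the knockout libraries. Every knockout library lay above every wild-type library, and the wild-type values themselves spread more than 2-fold. The means were 109 ± 43.3 and 244 ± 50.5 (SD, n = 3 each), 2.23-fold apart. The log2 fold change was 1.22 (SE 0.40, 95% interval 0.29 to 2.14, limma adjusted p = 0.0898). Leaving out single libraries it ran from 0.86 to 1.47, the lowest being without wild-type replicate 1. None of these fits passed, with adjusted p-values from 0.108 to 0.260.

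TBX3 (ENSG00000135111.15, chromosome 12 from 114670254 to 114684164, minus strand) had 270.4, 251 and 304 normalized counts in the wild type and 366, 645 and 536 in the knockout. The wild-type libraries lay close together, and knockout replicate 1 was nearer to them than the other knockout libraries were. The means were 275 ± 26.8 and 516 ± 141 (SD, n = 3 each), 1.87-fold apart, with a log2 fold change of 0.87 (SE 0.28, 95% interval 0.22 to 1.52, limma adjusted p = 0.0871). Leaving out single libraries, it ran from 0.69 to 1.10 with adjusted p-values from 0.0286 to 0.237.

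TBX2 (ENSG00000121068.13, chromosome 17 from 61399896 to 61409466, plus strand) was the most abundant of the 4 factors. It had 1660.0, 1270.5 and 1877 normalized counts in the wild type and 1605, 2092 and 2055 in the knockout, so that the genotypes overlapped. The log2 fold change was 0.27 (SE 0.22, 95% interval -0.25 to 0.79, limma adjusted p = 0.499). With libraries scaled to equal totals it was -0.014. That scaling lowered the median of all genes to -0.28, and the TBX2 value stayed above that median.

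The balance of TBX2 and TBX3, related repressors, was then taken within each library. Normalized counts were divided by the length of the longest coding transcript, 3.339 kb for TBX2 and 4.723 kb for TBX3, and the TBX3 share of the sum was taken. This share does not depend on how libraries are scaled to each other. It was 10.3%, 12.3% and 10.3% in the wild type and 13.9%, 17.9% and 15.6% in the knockout, with no overlap. The means were 10.96% ± 1.14 and 15.78% ± 2.02 (SD, n = 3 each), 4.83 percentage points apart. An exact two-sided permutation test gave p = 0.1, the smallest that 3 against 3 libraries allow, and 0.167 after Benjamini-Hochberg adjustment over the 5 quantities tested in this way.

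HCN4 (ENSG00000138622.3, chromosome 15 from 73319859 to 73369264, minus strand) was the leading HCN channel in every library. It had 2246, 1775 and 2568 normalized counts in the wild type and 1589, 1364 and 1266 in the knockout. All knockout libraries were lower than all wild-type libraries, the closest being wild-type replicate 2 and knockout replicate 1. The means were 2196 ± 398 and 1407 ± 165 (SD, n = 3 each), so that the knockout held 64.0% of the wild-type mean. The log2 fold change was -0.63 (SE 0.21, 95% interval -1.13 to -0.14, limma adjusted p = 0.0965). Single libraries left out moved it between -0.78 and -0.51, with adjusted p-values from 0.0623 to 0.292. With equal totals it was -0.91 and just past the threshold (limma adjusted p = 0.0499), but that scaling lowered the median of all genes to -0.28.

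HCN3 (ENSG00000143630.9, chromosome 1 from 155277583 to 155289848, plus strand) had 143, 244 and 199.7 normalized counts in the wild type and 123, 214 and 129 in the knockout. The genotypes overlapped, with high and low libraries in each. Its log2 fold change was -0.35 (SE 0.36, 95% interval -1.17 to 0.48, limma adjusted p = 0.593). HCN2 (ENSG00000099822.2, chromosome 19 from 589893 to 617159, plus strand) was scarce, with 8, 10 and 26 reads in the wild type and 10, 12 and 13 in the knockout. These made 12.1, 7.62 and 16.6 against 12.7, 13.4 and 11.6 normalized counts. Its log2 fold change was 0.11 (SE 0.61, 95% interval -1.32 to 1.53, limma adjusted p = 0.938). It turned to -0.17 without wild-type replicate 2 and to -0.15 with equal totals. At this depth a 2-fold change of HCN2 in either direction lay within the interval.

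**Figure D2:**
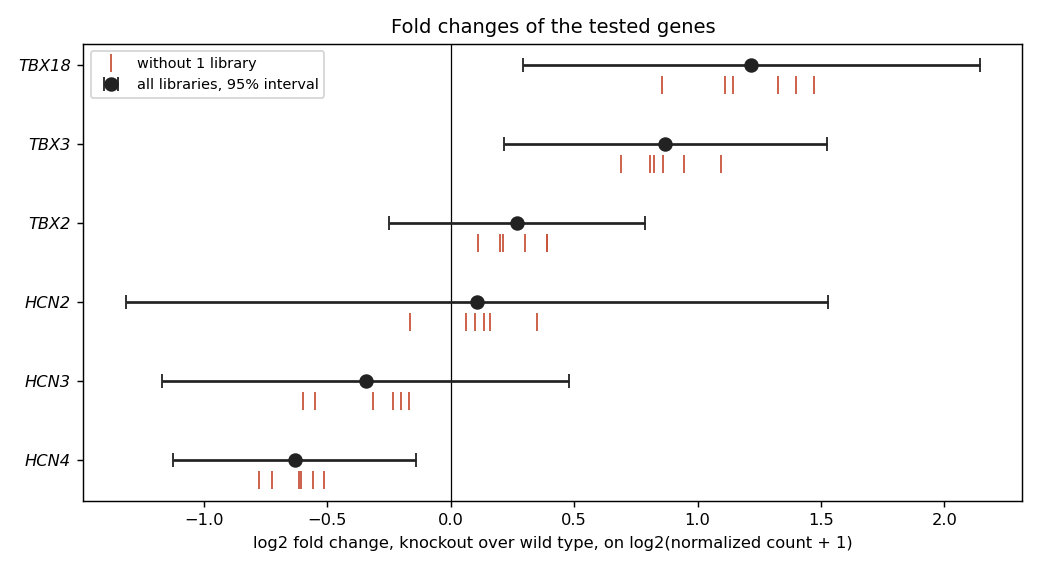
Log2 fold changes of the 6 tested pacemaker genes, knockout over wild type: points with limma's 95% interval from all 6 libraries, and red ticks for the 6 fits that each left out 1 library. TBX18, TBX3 and HCN4 have intervals that leave out 0 before adjustment over genes, while those of TBX2, HCN2 and HCN3 include it.

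HCN2, HCN3 and HCN4 together summed to less in every knockout library than in any wild-type library, with HCN4 the main part in all. Per kb of transcript, the sum came to 352.9, 313.6 and 413.8 normalized counts per kb in wild-type replicates 1, 2 and 3 and to 256.7, 250.2 and 213 in the knockout. The knockout mean was 66.7% of the wild-type mean (exact two-sided permutation p = 0.1, adjusted 0.167). HCN4 made up 88.1%, 78.3% and 85.8% of the sum in the wild type and 85.6%, 75.4% and 82.2% in the knockout, so that the genotypes overlapped. Its means of 84.1% ± 5.11 and 81.1% ± 5.19 (SD, n = 3 each) differed by 3.00 percentage points, less than the spread between replicates (exact two-sided permutation p = 0.5). Without wild-type replicate 2 and knockout replicate 1 the difference was 8.16 points, and without knockout replicate 2 it was 0.181. HCN3 held 15.0% ± 5.30 and 17.4% ± 5.14 (exact permutation p = 0.6, n = 3 each). HCN2 held at most 1.18% in a wild-type library and at least 1.45% in a knockout library (exact permutation p = 0.1, adjusted 0.167), but on at most 26 reads a library.

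**Figure D3:**
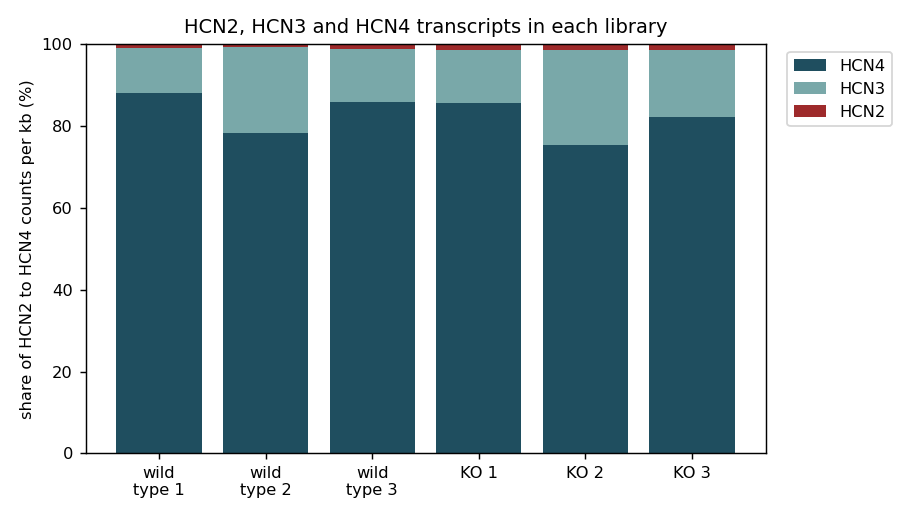
Shares of HCN2, HCN3 and HCN4 in the sum of their normalized counts per kb of longest coding transcript, in percent, for each library. HCN4 made up between 75.4% and 88.1% in all 6 libraries.

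Per kb of transcript, the order of levels in the wild type was TBX2, HCN4, TBX3, HCN3, TBX18, HCN2 and SHOX2, from 479.9 ± 92.0 to 0.166 ± 0.287 normalized counts per kb (SD, n = 3). The ranges of TBX3 and HCN3 overlapped there, and the other neighbours in that order were separate. In the knockout TBX2 (574 ± 81.1) and HCN4 (195 ± 22.9) again led, and TBX3 came next at 109 ± 29.8 normalized counts per kb. HCN3 and TBX18 followed at 41.8 and 39.1 with overlapping ranges, and HCN2 and SHOX2 overlapped at the bottom.

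Other genes known from the sinoatrial node passed the test in both directions. Of 15 tested, 4 rose and 4 fell (53.3%, against 12.8% of all genes), with a median log2 fold change of 0.17. This list and those below were chosen with earlier results of these data known, so the shares called are not independent evidence. The risers were ISL1, a factor of node progenitors, BMP4, a signal that acts upstream of T-box genes, SMOC2, a matrix protein, and RGS6, which shortens the response to acetylcholine. ISL1 went from 480.3, 781 and 440.1 normalized counts in the wild type to 6696, 8622 and 8133 in the knockout (log2 fold change 3.82, SE 0.26, limma adjusted p = 0.000225). BMP4 went from 230, 167 and 215 to 1014, 924 and 1049.6 (2.29, SE 0.23, limma adjusted p = 0.00113). In both genes all knockout libraries lay far above the wild type. SMOC2 went from 13.6, 0 and 2.55 to 69.9, 197 and 184 normalized counts (limma adjusted p = 0.0143), with adjusted p-values up to 0.0669 without replicate 3 of the wild type or replicate 2 or 3 of the knockout. RGS6 went from 10.6, 21.3 and 14.7 to 122, 69.1 and 76.4 (limma adjusted p = 0.0164), with up to 0.0697 without replicate 1 or 3 of the wild type or replicate 3 of the knockout.

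The node genes that fell were CPNE5, IGFBP5, VSNL1 and CACNA1G. CPNE5, a copine that binds membranes when calcium rises, went from 675, 833 and 609.8 normalized counts to 1.27, 2.23 and 5.33, with 1, 2 and 6 reads in the knockout libraries (log2 fold change -7.61, SE 0.49, limma adjusted p = 0.000198). IGFBP5, a binding protein of insulin-like growth factors, went from 4215 ± 1121 to 585 ± 112 (SD, n = 3 each, limma adjusted p = 0.000696). VSNL1, a calcium sensor, went from 277 ± 27.5 to 61.9 ± 34.2 (SD, n = 3 each, limma adjusted p = 0.0123, or 0.064 without wild-type replicate 1). CACNA1G, the T-type calcium channel Cav3.1 that helps to start pacemaker depolarization, went from 500.0, 508 and 646 to 0, 39.0 and 18.7. Its log2 fold change was -5.89 (SE 1.22, limma adjusted p = 0.0193). It did not pass, with adjusted p-values up to 0.0748, without any 1 of the 3 wild-type libraries. CACNA1H, another T-type calcium channel, had 157, 220.1 and 192 normalized counts in the wild type and 667, 269 and 289.7 in the knockout, without overlap (log2 fold change 0.99, limma adjusted p = 0.152). The L-type channel CACNA1D had a log2 fold change of 0.07 (limma adjusted p = 0.890), and GJC1, the connexin of slowly conducting tissue, 0.52 (limma adjusted p = 0.276).

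Genes of the working chambers that TBX2, TBX3 or SHOX2 are known to repress were also read. Of 8 tested, 4 fell and 1 rose (62.5% called, against 12.8% of all genes), with a median log2 fold change of -0.51. The list was likewise chosen with earlier results of these data known. Those that fell were GJA5 and GJA1, the fast connexins, NPPA, the atrial natriuretic peptide, and NKX2-5, a core cardiac factor. GJA5 had 1072, 820.3 and 1171 normalized counts in the wild type and 0, 0 and 3.55 in the knockout. GJA1 went from 723 ± 243 to 25.5 ± 8.51 and NKX2-5 from 21091 ± 2088 to 6444 ± 498 (SD, n = 3 each, limma adjusted p = 0.000495 and 0.00135). CITED1, a transcriptional co-regulator, rose from 8.43 ± 4.50 to 58.1 ± 9.09 (SD, n = 3 each, limma adjusted p = 0.0179), with adjusted p-values up to 0.0829 without replicate 3 of the wild type or replicate 2 or 3 of the knockout. NPPB (0.72), SMPX (0.68) and KCNJ2 (1.32) had log2 fold changes above 0 that did not pass (limma adjusted p = 0.195, 0.177 and 0.522). Whether these genes differed because of TBX2 or TBX3 was not tested.

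Among 15 tested factors and signals that act upstream of the pacemaker factors or with them, 5 rose and 3 fell, 53.3% against 12.8% of all genes. Their list, too, was chosen with earlier results of these data known. ISL1, BMP4 and NKX2-5 are shared with the lists above. MEF2C, a core cardiac factor that partners GATA proteins, went from 3796, 2635 and 3466 normalized counts to 6274, 8409 and 7032 (log2 fold change 1.14, SE 0.22, limma adjusted p = 0.0138), with all knockout libraries above the wild type. It did not pass without replicate 3 of the wild type or replicate 2 or 3 of the knockout (0.0502 to 0.0601), nor with equal totals (0.0937). NR2F2, a nuclear receptor of atrial identity, went from 19.6, 69.3 and 19.8 to 652, 308 and 260.4 (limma adjusted p = 0.00818). BMP2 went from 2749 ± 681 to 5418 ± 1193 (SD, n = 3 each) and only just passed (limma adjusted p = 0.0496). HEY1 and HEY2, Notch-induced repressors that confine the atrioventricular canal, went from 4356 ± 479 to 997 ± 342 and from 3227 ± 333 to 139.6 ± 47.1 (SD, n = 3 each, limma adjusted p = 0.00295 and 0.000177). TBX5, which activates many of the same chamber genes, had a log2 fold change of -0.76 (SE 0.22, limma adjusted p = 0.0666), and TBX20, MSX2, GATA4 and GATA6 lay between -0.23 and 0.19. MSX1 had -0.72 (limma adjusted p = 0.347). NR2F1, without a read in the wild type, had 3.08 (limma adjusted p = 0.258).

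Of the 14 other T-box genes, 7 were tested and 2 passed (28.6%, against 12.8% of all genes). TBX1, a factor of pharyngeal and anterior heart field progenitors, went from 4.53, 6.09 and 5.74 normalized counts to 212, 195 and 300.4 (log2 fold change 5.18, SE 0.43, limma adjusted p = 0.000472). TBX15 had no read in any wild-type library and 20, 36 and 9 reads in the knockout libraries. Taking 3 reads per wild-type library as its limit, it was at least 8.42-fold higher (limma adjusted p = 0.0216, up to 0.068 without wild-type replicate 1 or 3). TBXT, the T-box factor of early mesoderm, had no read in any library. The list of accessory and regulatory proteins of HCN channels held 10 symbols, 2 of them older names (MRVI1 for IRAG1 and LRMP for IRAG2). The 8 genes were all in the table, 6 were tested and 0 passed, against 12.8% of all genes. At an unadjusted p under 0.05 there were 2, near the 27.5% of all genes: NEDD4L, a ubiquitin ligase, had a log2 fold change of 0.86 (limma adjusted p = 0.0809), and KCNE2, a small subunit that can join HCN channels, had 1.26 (limma adjusted p = 0.164).

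**Figure D4:**
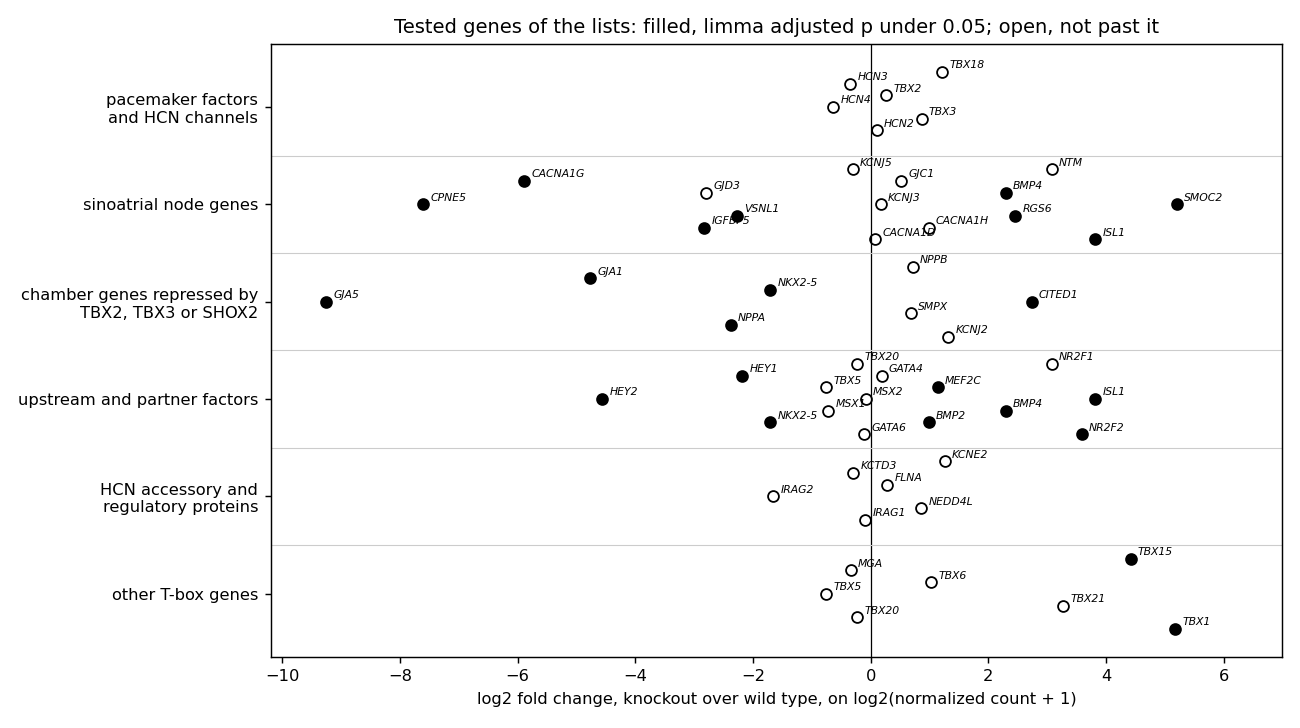
Log2 fold changes, knockout over wild type, of the tested genes of the pacemaker set and of the 5 gene lists named on the axis: filled points passed the limma test across all genes and open points did not. The 6 tested pacemaker factors and HCN channels lie between -0.63 and 1.22 and are all open, while called genes of those 5 lists reach from -9.25 (GJA5) to 5.20 (SMOC2).

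TBX18, TBX2, TBX3 and SHOX2 are also made by epicardial, mural and stromal cells and HCN channels by neurons, so the markers of such cells were read in the same libraries. Of all tested genes 12.8% passed, 5.97% as higher and 6.79% as lower, the shares to set beside the counts that follow. Smooth muscle and pericyte markers summed to between 88192 and 97090 normalized counts in the wild type and between 496154 and 544163 in the knockout, with 4 of 7 tested genes higher, among them MYH11 and ACTA2 (log2 fold changes 5.12 and 2.98, limma adjusted p = 0.000175 and 0.000420). ACTA2 made up most of the smooth muscle and pericyte sum, at 49466 ± 3691 and 389103 ± 8357 (SD, n = 3 each). Reads of near-identical actins can be shared with ACTA2. The pericyte markers PDGFRB, RGS5 and CSPG4 did not pass and went in both directions. Their log2 fold changes were 2.24, -0.13 and -1.68 (limma adjusted p = 0.0658, 0.685 and 0.150). Epicardial markers overlapped, at 2626 to 4857 and 2414 to 5348, with 2 of 8 tested genes higher. Those were TCF21, from 22.2 ± 30.3 to 467 ± 67.9, and ALDH1A2, from 6.37 ± 5.84 to 189 ± 87.3 (SD, n = 3 each, limma adjusted p = 0.00952 and 0.0141, the latter 0.0660 without knockout replicate 3). LRRN4 made up most of that sum, at 3774 ± 1229 and 3028 ± 1423. WT1, a factor of the epicardium, had 28.7, 4.57 and 18.5 normalized counts in the wild type and 159, 135 and 43.5 in the knockout, without overlap (log2 fold change 2.74, limma adjusted p = 0.0584). MSLN, a mesothelial marker, had 1 read in all 6 libraries together. Neural markers summed to 72.1 to 123 and 471 to 830.4, with 3 of 5 tested genes higher. Those were SOX2, from 1.91 ± 1.90 to 138 ± 41.7, TUBB3, from 62.3 ± 40.1 to 449 ± 137, and PAX6, from 4.22 ± 2.57 to 53.4 ± 37.4 (SD, n = 3 each, limma adjusted p = 0.00256, 0.00997 and 0.0364). PAX6 did not pass without any 1 of the 6 libraries (0.0512 to 0.127). STMN2 and DCX, markers of neurons, were at most 12.1 and 7.55 normalized counts in any library and were not tested. The part of these cells in the values of the pacemaker genes was not tested. Of the tested markers of other cells, 3 of 4 ventricular genes fell, 1 of 7 atrial genes rose and 2 fell, 2 of 8 fibroblast and stromal genes rose and 1 fell, 1 of 3 endoderm genes fell, and 0 of 4 endothelial and 0 of 4 pluripotency genes passed.

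The nearest tested genes along the chromosome were read beside each pacemaker gene, 14 in all, of which 2 passed, a share near the 12.8% of all tested genes. BCAS3, whose annotated end lies 7057 bases before TBX2, went from a mean of 1135 to 2512 normalized counts (limma adjusted p = 0.0365), but passed only without knockout replicate 1 among the fits that left out 1 library, the others giving adjusted p-values from 0.0687 to 0.128. With equal totals it did not pass (0.173). FDPS, an enzyme of the mevalonate pathway 18899 bases beyond HCN3, went from 13272 to 48393 (limma adjusted p = 0.00214). Reads of overlapping genes cannot be told apart by strand where the labels state no strand setting: SHOX2 overlaps the 5′ end of RSRC1, and HCN3 that of CLK2, on opposite strands. RSRC1 (log2 fold change 0.33, limma adjusted p = 0.648) and CLK2 (-0.12, limma adjusted p = 0.722) did not pass. TBX5, the neighbour of TBX3 on chromosome 12, lay on the other side of 0 from it.

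Likeness of pattern was measured as the root mean square distance between log2 profiles over the 6 libraries, each centred on its own mean, with the nearest of all tested genes named. TBX2 was nearest to LIN7C (0.0372) and RECK (0.040), TBX3 to SWAP70 (0.0767) and NDUFS1 (0.0777), and TBX18 was near to STAG3L1 (0.174). HCN4 was nearest to WRN (0.0911) and TRIM65 (0.0942), HCN3 to HARBI1 (0.101) and IFT88 (0.136), and HCN2 to DIAPH1 (0.074) and UBR1 (0.0897). No pacemaker gene was among the nearest genes of another, but only the 2 nearest of 15536 tested genes were kept for each, so this says little. Between the 6 themselves the distance was smallest for TBX2 and HCN2 (0.211), followed by TBX2 and TBX3 (0.340), and largest for TBX18 and HCN4 (1.01).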

How the data were processed

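RNA of 6 libraries was made into cDNA by Clontech Ultra Low v4 chemistry and then into NexteraXT libraries, per the labels' protocols. The submitters' processing notes list bcl2fastq 2.19, kallisto 0.44.0, DESeq2 1.28.1 and GRCh38, with no role or order. The annotation is not given in the sources used here. The deposited values are a signal that the authors call normalized counts, 1 per gene symbol and library, and 0 columns were left unused. In each library 100% of the values were whole multiples of 1 step (within 0.01 reads), so whole reads were recovered. Estimated counts that had been rounded would look the same. The counts of any 2 replicates differed by far more than sampling noise (chi-square over its degrees of freedom at least 20.0), and each counted as 1 sample.

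The main test was limma 3.58.1 in R 4.3.3 (lmFit, eBayes with a trend) on log2(value + 1), which understates changes of low genes, on genes whose mean reached 10. The Benjamini-Hochberg adjustment covered all genes tested, with a threshold of 0.05. Count tests on recovered reads (edgeR 4.0.16, DESeq2 1.42.0) served as alternatives. The others were pseudocounts of 0.1 and 10, other filters and scalings, eBayes settings, the replicate number as a block, shares without division by length, and leaving out libraries. Shares were tested with exact permutation tests (scipy 1.17.1). Figures were drawn with matplotlib 3.10.9. On simulated data with 15536 genes, limma recovered 49 of 100 genes changed 1 log2 unit and 100 of 100 changed 2. It made 8 false calls among 157. The simulation gave every gene the same spread between replicates beyond counting noise, and no simulated library stood apart. How far these rates hold for the sequenced libraries, where 12.8% of all genes passed, was not tested.

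Gene positions and transcript lengths came from GENCODE 29, matched by symbol (97.7% of tested genes). Named are STK25, the 7 genes, list genes past the threshold (the 4 largest each way where over 6 passed), up to 2 markers per list, neighbours and the genes of nearest pattern. Other list genes were named after their values were seen. The members and lists were chosen with earlier results of these data known. Some genes that the lists and rules would take in are not reported here and were left out of list counts and figures, and the HCN sum and shares were taken over HCN2, HCN3 and HCN4, a choice made after the data were seen.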

Additional observations from a re-analysis of the deposited data

How the results depend on the processing

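The count of all genes called was 1982 (927 higher, 1055 lower). It moved beyond 1.5 times with DESeq2 (3210), with the replicate block (798), and without both wild-type replicate 2 and knockout replicate 1 (4706, added after the data were seen). Leaving out 1 library gave 792 to 2192. The count also moved beyond 1.5 times without wild-type replicate 1 (792) or 3 (911) and without knockout replicate 2 (1270) or 3 (963). Equal totals gave 546 higher and 1467 lower. Correlations of deviations from the genotype means were -0.235, -0.4 and 0.169 for replicate numbers 1, 2 and 3. Wild-type replicate 2 correlated best with knockout replicate 1 (0.448), the libraries that stood apart. With 3 libraries per genotype, such values cannot show whether samples of the same number were made in parallel. The count of pacemaker genes called, 0, became 1 with equal totals (HCN4), 1 with quantile normalization (TBX3), 3 with DESeq2 and 2 without both of those libraries, and stayed between 0 and 1 with any single library omitted. Log2 fold changes that changed sign were those of TBX2 with equal totals (-0.014) and of HCN2 with equal totals (-0.15) and without wild-type replicate 2 and knockout replicate 1 (-0.18); leaving out 1 library, HCN2 ran from -0.17 (without wild-type replicate 2) to 0.35. The HCN4 share differed by -5.88 to -0.181 percentage points with 1 library left out and by -8.16 without both. The TBX2 share differed by -5.78 to -3.77 points with 1 left out. The causes were not tested. Depth limits SHOX2 and HCN2, with at most 12 and 26 reads a library.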
